A study of Mus musculus with 8 samples.

Results

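Caspases are proteases that cut proteins after aspartate, and gasdermin D is a pore-forming protein that some of them cleave. The genes described here are Casp1, Casp2, Casp4, Casp6, Casp9, Casp12 and Gsdmd, chosen by name as 7 of the 44343 genes in the table of normalized counts. Each name had exactly 1 entry, so all 7 were found. RNA had been sequenced from pancreatic beta cells sorted from mice whose Adar alleles were floxed. Adar encodes an enzyme that converts adenosine to inosine in double-stranded RNA. The KO mice carried MipCreER, Adar floxed/floxed and R26R-EYFP, and the Het mice carried the same Cre and reporter with Adar floxed/+. MipCreER is a tamoxifen-inducible Cre recombinase under an insulin promoter, and the reporter makes recombined cells yellow fluorescent. Both groups received 2 tamoxifen doses of 8 mg at 1 month of age, and YFP-positive cells were sorted 7 days later, so the Het cells had Cre, tamoxifen and 1 floxed allele too. There were 4 Het and 4 KO libraries. The number of mice behind each library is not in the labels, and the p-values cover variation from library to library, which may be partly technical. Those from the fits across all genes draw largely on a spread pooled over genes. The design text asks what lies behind the islet inflammation and diabetes that follow loss of Adar, and the comparison for these genes is whether their RNA differed between KO and Het.

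Caspases are made as inactive precursors. The inflammatory caspases, caspase-1 and in mice caspase-4 (also called caspase-11), are switched on by sensors of infection or damage and cleave gasdermin D, whose amino-terminal part forms pores in the plasma membrane. Caspase-1 matures the cytokines interleukin-1 beta and interleukin-18 in the canonical inflammasome, while caspase-4 binds bacterial lipopolysaccharide in the noncanonical one. Caspase-12 is a relative of both that has been studied in the endoplasmic reticulum. Caspase-9 is the initiator that the apoptosome activates after cytochrome c leaves mitochondria, caspase-2 is activated by the PIDDosome, and caspase-6 is an executioner that cuts lamins and other structural proteins. Much of this control acts on the proteins, which RNA levels do not measure.

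The libraries held 5.37 to 15.9 M reads and differed from each other within a genotype, most of all within KO. The part of genotype in these differences was not tested. Over genes with a mean normalized count of at least 200, the median log2 level relative to the mean of all libraries was 0.88 and 0.96 for KO 1 and KO 2. It was -0.77 and -0.56 for KO 3 and KO 4. In Het it was between -0.46 and 0.22. Each member is therefore given on the deposited scaling and after TMM scaling, which resets libraries to a common level from most of their genes. KO 3 had a mitochondrial share of 17.4% of its reads, against 6.90% to 10.4% elsewhere. Adar itself was at 744 to 1187 in Het and 615 to 4030 in KO. A count over the whole gene does not measure the floxed part, so it does not check the labels. All 12 beta cell markers were present, and their summed normalized count was 639444 to 1310801 in Het and 236384 to 1395855 in KO.

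Gsdmd was the one member whose KO libraries all lay above all Het libraries. Casp4, the inflammatory caspase of the noncanonical pathway, was high in KO 1 and to a lesser degree in KO 2 on the deposited scaling, and its groups overlapped. After TMM scaling it stayed high in KO 1, while KO 2 lay within the Het range and KO 3 just above it. Casp2, Casp6 and Casp9 did not pass the test, and on the deposited scaling each was highest in KO 1 and KO 2 and lowest in KO 3 and KO 4, the order of the library levels. Casp1 and Casp12 were too low for the filter. Fitted with limma across 21498 genes with a mean normalized count of at least 10, none of the 5 members tested had a Benjamini-Hochberg adjusted p under 0.05. Over all genes tested the same rule called 0.921% higher and 0.0233% lower in KO. At an unadjusted p under 0.05 there were 2 of the 5, Casp4 and Gsdmd, both higher, against 6.75% of all genes in either direction. None was called with TMM scaling (0.637% of all genes higher, 0.0372% lower), with edgeR, which tested all 7 (0.673% and 0.0343%) or with DESeq2 (1.25% and 0.0178%). At an unadjusted p under 0.05, TMM scaling gave 1 member (5.34% of all genes higher) and edgeR and DESeq2 gave 2 each (4.75% and 3.65%), all higher. In these bulk libraries, fewer cells of a type and less RNA per cell cannot be told apart.

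**Figure D1:**
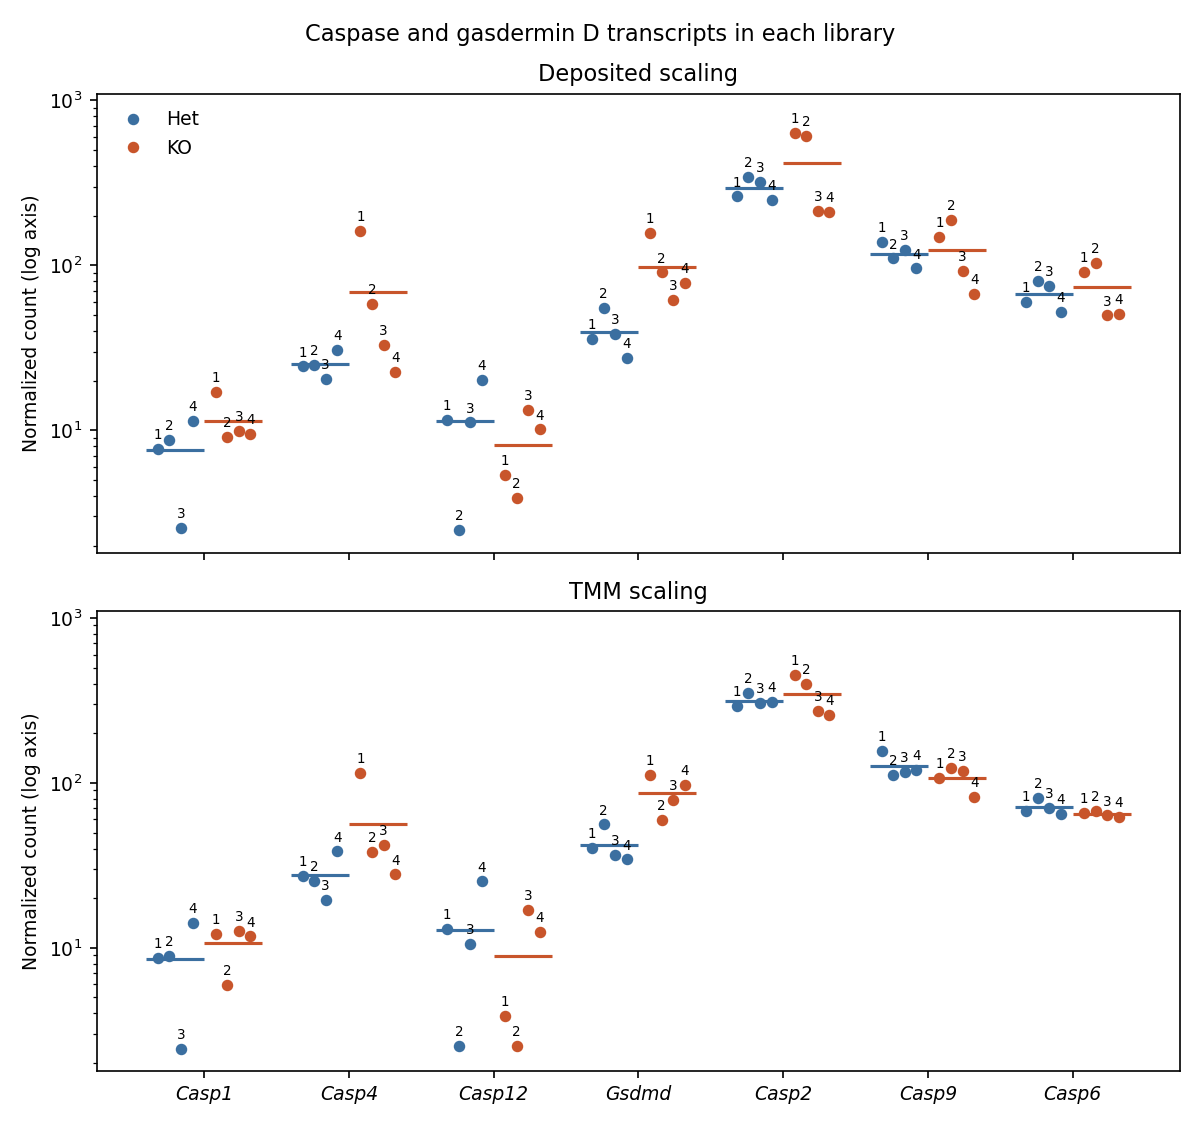
Normalized count (log axis) of each of the 7 members in each of the 4 Het and 4 KO libraries, numbered by replicate, with group means as lines, on the deposited scaling (top) and after TMM scaling (bottom). Gsdmd lies at 27.5 to 55.0 in Het and 61.8 to 157 in KO on the deposited scaling and does not overlap on either, while the groups of the other members overlap.

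Gsdmd (ENSMUSG00000022575.5, protein-coding, mm10 chr15:75862327-75867408, plus strand) encodes the protein that makes the pores of pyroptosis. Its normalized count was 35.9, 55.0, 38.6 and 27.5 in Het 1 to Het 4 and 157, 90.6, 61.8 and 78.6 in KO 1 to KO 4. The lowest KO library, KO 3, was above the highest Het library, Het 2, and KO 1 stood well above the others. These values rest on 28, 44, 45 and 34 reads in Het and 175, 70, 56 and 132 in KO. The means were 39.2 ± 11.5 and 97.0 ± 41.7 (SD, n = 4 each). The log2 fold change was 1.24 (SE 0.40, 95% interval 0.45 to 2.02) with an unadjusted p of 0.0020 and a limma adjusted p of 0.144, which misses the threshold. The exact permutation p over the libraries, two-sided, was 0.0286, the smallest that the 70 arrangements allow. Over all genes, 2.19% had all 4 KO libraries above all 4 Het libraries on this scaling.

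TMM scaling lowered the KO 1 and KO 2 values of Gsdmd and raised those of KO 3 and KO 4. The scaled counts were 40.3, 56.0, 36.6 and 34.4 in Het and 112, 59.3, 78.9 and 96.8 in KO. The groups again did not overlap, as for 3.69% of all genes on this scaling, though KO 2 came close to Het 2. Here the log2 fold change of Gsdmd was 1.02 (SE 0.28, limma adjusted p = 0.144), and the exact permutation p was again 0.0286. Set against all 4 Het libraries with TMM scaling, KO 1 and KO 2 alone gave a log2 fold change of 0.95 (limma adjusted p = 0.0087), and KO 3 and KO 4 alone gave 1.08 (adjusted p = 0.0136). Gsdmd was higher than in Het in both the deeper and the shallower KO libraries once the level was reset. All 4 KO libraries already lay above every Het library, so a positive sign in each pair adds no further support. The TMM fits of the pairs were added after the data were seen, and the difference between these pairs was not tested. Those fits call far more of all genes than the full one: 18.2% higher and 26.9% lower for KO 1 and KO 2, and 2.37% and 4.95% for KO 3 and KO 4. On the deposited scaling KO 3 and KO 4 alone gave 0.85 for Gsdmd (adjusted p = 0.066), which misses the threshold. There KO 1 and KO 2 alone gave 1.62, with Casp2, Casp4 and Gsdmd all called higher, in a fit that called 47.4% of all genes higher and 15.4% lower. The corresponding shares for KO 3 and KO 4 were 1.22% and 7.03%. A further fit kept the 5 libraries in which Xist and the Y-linked Ddx3y were both at 198 or more normalized counts, read as libraries of both sexes. Of the libraries left out, Het 1 had Ddx3y but Xist at only 19.2. KO 3 and KO 4 had Xist but Ddx3y below 19.2, a pattern that no Het library had. The split of KO 1 and KO 2 from KO 3 and KO 4 was therefore also a split by these sex markers. The part of sex in the differences between these pairs was not tested. In the fit of the 5 libraries the log2 fold change of Gsdmd was 1.59 (42.3% of all genes called higher, 10.2% lower). With TMM scaling it was 0.93 (12.9% and 19.8%), and Gsdmd was called in both.

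Single libraries decided whether Gsdmd was called. With 1 library left out at a time, its log2 fold change ranged from 0.98 to 1.42 on the deposited scaling and from 0.89 to 1.19 with TMM scaling. It passed the threshold without KO 3 on the deposited scaling (adjusted p = 0.0237, where 1.6% of all genes were called higher and 0.218% lower) and without KO 2 with TMM scaling (adjusted p = 0.0474, where the shares were 1.01% and 0.34%). In the other 14 of 16 such fits it did not. KO 3 is the library with the high mitochondrial share, whose part in the result was not tested.

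Casp4 (ENSMUSG00000033538.13, protein-coding, mm10 chr9:5308828-5336783, plus strand) encodes the intracellular lipopolysaccharide receptor of the noncanonical inflammasome. Its normalized count was 24.3, 25.0, 20.6 and 30.8 in Het 1 to Het 4 and 161, 58.2, 33.1 and 22.6 in KO 1 to KO 4. KO 1 was well above every other library, and KO 2 was above all Het libraries. KO 3 was just above Het 4, and KO 4 lay within the Het range. The reads behind these values were 19, 20, 24 and 38 in Het and 180, 45, 30 and 38 in KO. The means were 25.2 ± 4.22 in Het and 68.8 ± 63.5 in KO (SD, n = 4 each), so the spread within KO was nearly as large as its mean. The log2 fold change was 1.02 (SE 0.40, 95% interval 0.24 to 1.81, limma adjusted p = 0.409), and the exact permutation p was 0.171. That SE and interval rest on a spread pooled over genes. The SD of Casp4's own log2 values was 0.23 in Het and 1.21 in KO. After TMM scaling the Casp4 counts were 27.4, 25.5, 19.5 and 38.4 in Het and 116, 38.1, 42.3 and 27.9 in KO, and the log2 fold change was 0.81 (SE 0.42, 95% interval -0.076 to 1.69; limma adjusted p = 0.635). Without KO 1 the log2 fold change of Casp4 dropped to 0.48 on the deposited scaling and 0.39 with TMM scaling. Without KO 4 it was 1.41 on the deposited scaling and passed the threshold (adjusted p = 0.0431, where 1.31% of all genes were called higher and 0.16% lower). KO 1 and KO 2 alone gave 1.25 with TMM scaling (adjusted p = 0.0032). That fit called 18.2% of all genes higher and 26.9% lower. In the TMM counts above, KO 2 (38.1) lay just below Het 4 (38.4). Of this pair, only KO 1 exceeded every Het library. KO 3 and KO 4 alone gave 0.13 on the deposited scaling and did not pass the threshold on either.

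The stretch upstream of Casp4 is shown because Casp4 was the inflammatory caspase with the highest count in any library and lies in a cluster with Casp1 and Casp12 on chromosome 9. Casp1 ends 1.56 kb before Casp4 starts, and Casp12 starts 8.65 kb after Casp4 ends, all on the plus strand. RefSeq's promoter table (build GRCm38.p6, 250 bases before to 50 after each start) held entries for 6 of the 7 members, the exception being Gsdmd. The windows were searched on both strands for the ISRE core (GAAA, any 2 bases, GAAA), bound by interferon-activated STAT and IRF factors and found in 3.44% of all 32851 windows of 300 bases. They were also searched for the GAS element TTCNNNGAA, bound by STAT dimers, which 8.30% of the windows hold, and for the NF-kappaB consensus, which 8.46% hold. The NF-kappaB consensus was added after the Casp4 sequence had been read, so its match there is a description only. No member's window held the ISRE core. Casp4 alone held the NF-kappaB consensus, at a pair of places in capitals in this upstream stretch (chr9:5308599-5308827, plus strand), the first of them 2 overlapping matches of which 1 also matches on the minus strand, and the second on the minus strand only. Casp12 alone held the GAS element, at 2 places, shown in capitals in 30-base stretches at chr9:5345363-5345392 and chr9:5345429-5345458. A match of letters is no evidence of binding, and a missing one says only that these letters are not in the window.
Casp4 upstream: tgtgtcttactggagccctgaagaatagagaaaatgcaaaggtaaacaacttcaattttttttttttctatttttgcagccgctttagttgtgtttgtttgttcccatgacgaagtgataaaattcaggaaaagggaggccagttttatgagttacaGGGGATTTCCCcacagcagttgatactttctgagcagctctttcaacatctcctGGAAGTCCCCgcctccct
Casp12 first GAS: cctggttgactTTCTGGGAAaagagcagga
Casp12 second GAS: cattggtatgtTTCTGGGAAggaaaggcac

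Casp1 (ENSMUSG00000025888.5, protein-coding, mm10 chr9:5298517-5307265, plus strand), the protease of the canonical inflammasome, was near the detection limit. It had 6, 7, 3 and 14 reads in Het 1 to Het 4 and 19, 7, 9 and 16 in KO 1 to KO 4. The normalized counts were 7.69, 8.75, 2.57 and 11.3 in Het and 17.0, 9.06, 9.93 and 9.53 in KO. KO 1 stood above the rest, Het 3 below, and the other 6 libraries lay close together, so the groups overlapped. Its mean of 9.49 over all libraries was under the filter of 10. With no filter the log2 fold change of Casp1 was 0.62 (limma adjusted p = 0.971), and the exact permutation p was 0.229. After TMM scaling the Casp1 counts were 8.65, 8.92, 2.44 and 14.1 in Het and 12.2, 5.93, 12.7 and 11.7 in KO, where KO 1 no longer stood apart and the log2 fold change was 0.42 (adjusted p = 0.940). Without Het 3 the log2 fold change of Casp1 was 0.24, and -0.0089 with TMM scaling, so its sign there rests on that library.

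Casp12 (ENSMUSG00000025887.10, protein-coding, mm10 chr9:5345430-5373032, plus strand) was as low as Casp1. It had 9, 2, 13 and 25 reads in Het and 6, 3, 12 and 17 in KO, which gave normalized counts of 11.5, 2.50, 11.1 and 20.3 in Het and 5.38, 3.88, 13.2 and 10.1 in KO. Het 2, KO 1 and KO 2 were the lowest libraries and Het 4 the highest. The mean of 9.76 was under the filter, and with no filter the log2 fold change was -0.30 (limma adjusted p = 0.980, exact permutation p = 0.686). With TMM scaling the Casp12 counts were 13.0, 2.55, 10.6 and 25.3 in Het and 3.85, 2.54, 16.9 and 12.5 in KO, and the log2 fold change was -0.47 (adjusted p = 0.940). With 2 to 25 reads a library, no difference in Casp1 or Casp12 was detectable at this depth. Receptor genes of the nose (olfactory and vomeronasal), which beta cells should lack, gave a level to read these against. Per kilobase of exon, Casp12 lay above 21.4% to 89.1% of those genes in the Het libraries and 52.9% to 65.6% in KO, and so lay within their range. Casp1 lay above 59.2% to 97.3% of them in Het and 92.4% to 99.9% in KO, and Casp4 above 95.9% to 98.4% and 95.4% to 100%. Those receptor genes took 0.0319% to 0.0449% of reads in KO 1 and KO 2 but 0.266% to 0.294% in KO 3 and KO 4, so the same count stands further above them in KO 1 and KO 2. Their part in the values of Casp1 and Casp12 was not tested.

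**Figure D2:**
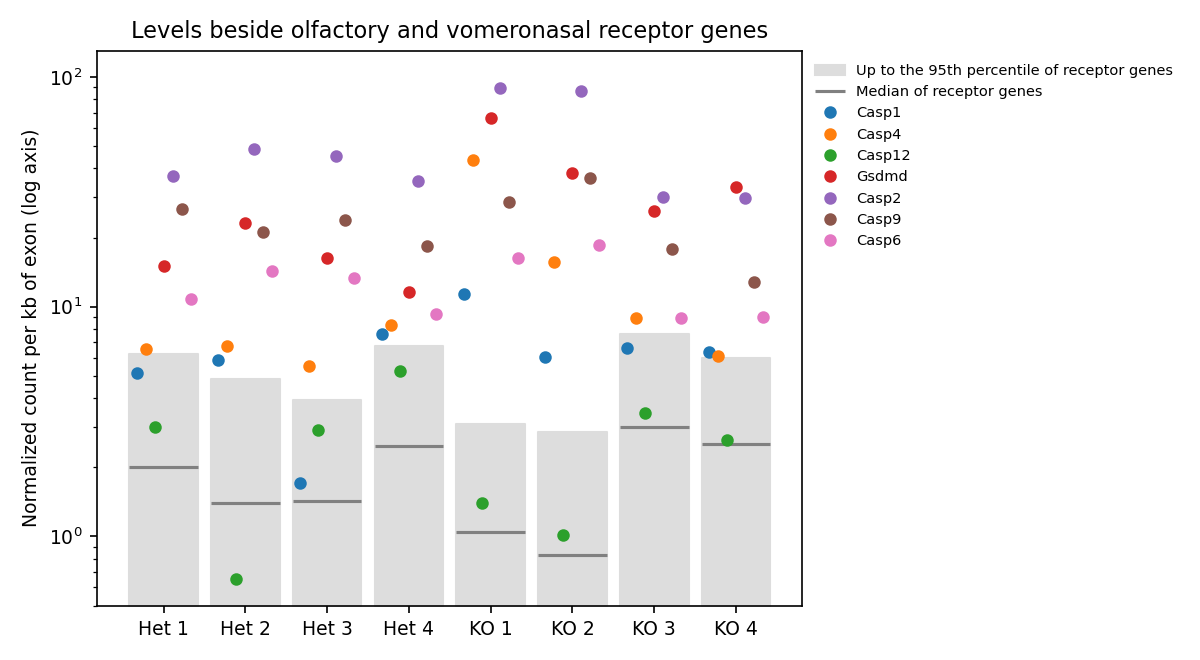
Normalized count per kilobase of exon of each member in each library, with the median of olfactory and vomeronasal receptor genes in the same library as a grey line and their values up to the percentile named in the key as a grey band (log axis). Casp2, Casp9 and Gsdmd lie well above that level. Casp6 lies above the band in every library, though only a little in KO 3 (8.89 against 7.58 at the top of the band). Casp12 lies in the range of the receptor genes.

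Casp2 (ENSMUSG00000029863.13, protein-coding, mm10 chr6:42264985-42282508, plus strand), the PIDDosome's caspase, had the highest count of the 7. Its normalized count was 261, 344, 321 and 250 in Het and 631, 611, 213 and 211 in KO. KO 1 and KO 2 were above every Het library while KO 3 and KO 4 were below every one, the same split as that of the library levels. The log2 fold change was 0.32 (SE 0.50, 95% interval -0.66 to 1.29; limma adjusted p = 0.961; exact permutation p = 0.514). With TMM scaling the Casp2 counts were 294, 350, 304 and 311 in Het and 452, 400, 272 and 260 in KO, and the log2 fold change was 0.10 (limma adjusted p = 0.894). The KO libraries thus stayed split around the Het ones. With TMM scaling KO 1 and KO 2 alone gave 0.41 (adjusted p = 0.0480), in a fit that called 18.2% of all genes higher and 26.9% lower. KO 3 and KO 4 alone gave -0.23 (adjusted p = 0.619), so the direction turned with the libraries used.

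Casp9 (ENSMUSG00000028914.13, protein-coding, mm10 chr4:141793612-141815976, plus strand), the apoptosome's caspase, was at 138, 110, 123 and 95.6 in Het and 149, 189, 92.6 and 66.7 in KO. KO 2 was the highest library and KO 4 the lowest, with the Het libraries between. Its log2 fold change was -0.01 (SE 0.43, 95% interval -0.85 to 0.83; limma adjusted p = 0.998; exact permutation p = 1). With TMM scaling the counts of Casp9 were 156, 112, 117 and 119 in Het and 107, 124, 118 and 82.1 in KO, and the log2 fold change was -0.23 (adjusted p = 0.738). Its exons overlap those of Cela2a and Ctrc on the opposite strand, acinar enzymes that had mean normalized counts of 4.28 and 4.43 in Het. How the counting treated strand is not given in the sources used here.

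Casp6 (ENSMUSG00000027997.9, protein-coding, mm10 chr3:129901425-129914103, plus strand), the executioner among the 7, was at 60.2, 80.0, 74.6 and 51.9 in Het and 91.4, 104, 49.6 and 50.6 in KO. KO 1 and KO 2 were again highest and KO 3 and KO 4 lowest. The log2 fold change was 0.09 (SE 0.40, 95% interval -0.70 to 0.88; limma adjusted p = 0.988; exact permutation p = 0.771). After TMM scaling Casp6 had the narrowest range of the 7, with 67.7, 81.5, 70.7 and 64.7 in Het and 65.5, 67.8, 63.4 and 62.3 in KO. The log2 fold change was then -0.13 (adjusted p = 0.848), of the opposite sign. On the deposited scaling the intervals of Casp2, Casp6 and Casp9 leave room for changes of about 1 log2 unit in one direction or the other. With TMM scaling they were narrower, at -0.39 to 0.58 for Casp2, -0.60 to 0.34 for Casp6 and -0.68 to 0.22 for Casp9. The data thus do not show that these genes were alike in both groups.

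**Figure D3:**
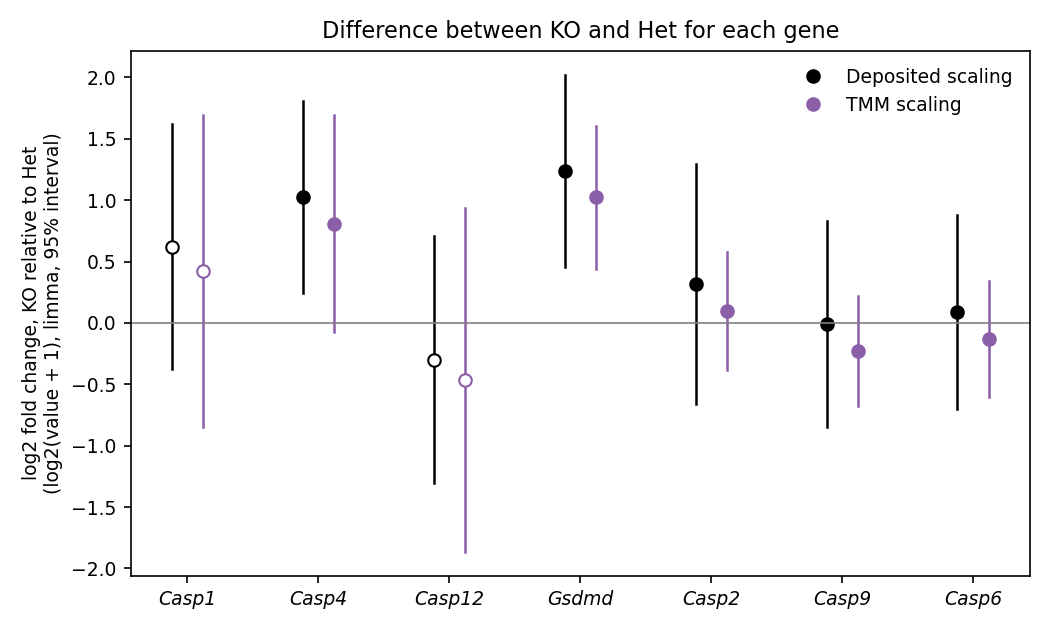
Log2 fold change of KO over Het for the members with 95% intervals, on the deposited scaling and after TMM scaling, with open points for genes under the filter, fitted without it. Gsdmd (1.24 and 1.02) and Casp4 (1.02 and 0.81) lie highest. The intervals of Casp4 after TMM scaling and of Casp1, Casp2, Casp6, Casp9 and Casp12 on both scalings cross 0.

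Ratios of reads between members within a library do not depend on how libraries are scaled. Casp6 was taken as the common denominator because it varied least after TMM scaling, a choice made after its values were seen, so the ratios are a description with no test. Gsdmd reads over Casp6 reads were 0.60, 0.69, 0.52 and 0.53 in Het and 1.72, 0.88, 1.24 and 1.55 in KO. Every KO ratio was above every Het ratio, with KO 2 the closest. Casp4 over Casp6 was 0.40, 0.31, 0.28 and 0.59 in Het and 1.76, 0.56, 0.67 and 0.45 in KO, with overlap. Casp2 over Casp6 was 4.34, 4.30, 4.30 and 4.81 in Het and 6.90, 5.90, 4.29 and 4.16 in KO. The Casp2 ratio was thus close to constant in the Het libraries, KO 3 and KO 4, and higher in KO 1 and KO 2.

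**Figure D4:**
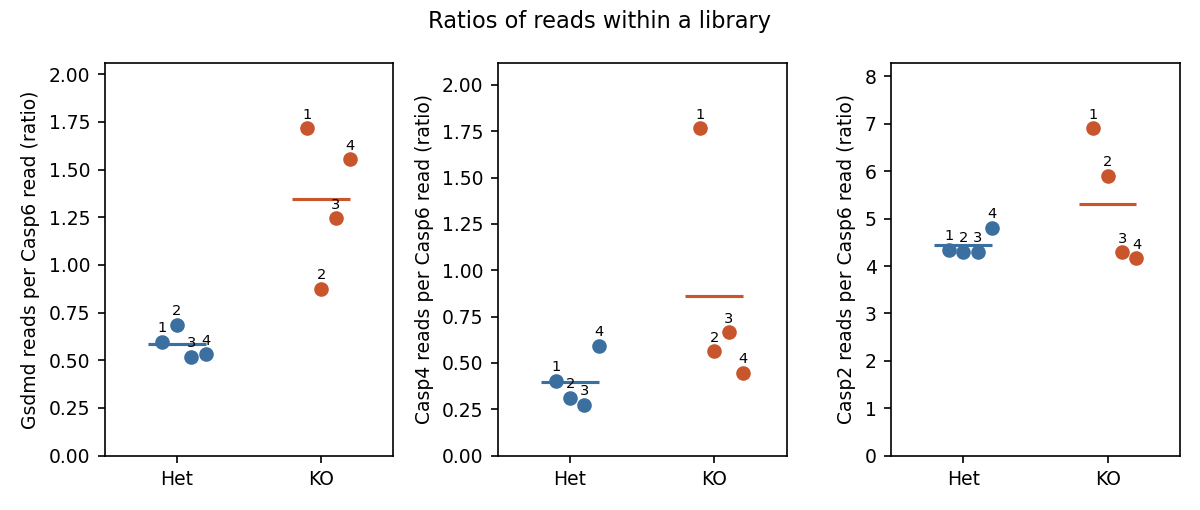
Ratio of reads of Gsdmd, Casp4 and Casp2 to reads of Casp6 within each library, by group, with the replicate number above each point and the group mean as a line. The Gsdmd ratio is 0.52 to 0.69 in Het and 0.88 to 1.72 in KO without overlap, and the other ratios overlap.

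Levels can be compared between genes per kilobase of exon. In the Het libraries the order of mean level was Casp2 (41.6 ± 6.46 normalized counts per kilobase, SD, n = 4), Casp9 (22.5 ± 3.52), Gsdmd (16.5 ± 4.84), Casp6 (11.9 ± 2.32), Casp4 (6.79 ± 1.14), Casp1 (5.07 ± 2.46) and Casp12 (2.96 ± 1.89). Of neighbours in that order, only Casp2 over Casp9 and Casp6 over Casp4 had ranges that did not overlap. In KO the order of mean level was Casp2 (59.0 ± 33.5), Gsdmd (40.8 ± 17.5), Casp9 (23.9 ± 10.6), Casp4 (18.6 ± 17.1), Casp6 (13.2 ± 4.98), Casp1 (7.61 ± 2.52) and Casp12 (2.12 ± 1.12). Gsdmd exceeded Casp9 in all 4 KO libraries, whereas Casp9 exceeded Gsdmd in 3 of 4 Het libraries. Only Casp1 over Casp12 had ranges that did not overlap in KO.

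Myeloid cells are rich in Casp1, Casp4 and Gsdmd, so markers of other cell types are given beside these members. The 17 macrophage and myeloid markers, 10 of them with a mean of at least 10, summed to 467 to 624 in Het and 345 to 456 in KO, without overlap. That separation rests on C1qa, at 164 to 265 in Het and 26.8 to 208 in KO. The markers C1qb and C1qc of the same list had means of only 4.16 and 8.33 in Het and 3.79 and 5.53 in KO. The source of the C1qa reads was not tested, so the full sum is not read as a measure of macrophages. Without C1qa the other 16 summed to 303 to 378 in Het and 247 to 335 in KO, with overlap. Mpeg1, a pore-forming protein of macrophages, was at 8.57 to 17.8 in Het and 20.7 to 105 in KO, the 1 marker of the 17 with every KO library above every Het library. The 12 T and NK cell markers in the table summed to 115 to 173 in Het and 51.8 to 183 in KO, and 6 neutrophil markers summed to 46.3 to 85.9 and 20.7 to 66.7. No marker of these lists was at 0 in every library. That alone does not show such cells, since the olfactory and vomeronasal receptor genes also took 0.0319% to 0.294% of reads. The part of these cells in the Gsdmd and Casp4 values was not tested.

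The genes around these proteases were described by 8 lists of 81 genes, of which 74 were tested. Guanylate-binding proteins, which help expose bacterial lipopolysaccharide to caspase-4, and immunity-related GTPases formed the only list in which limma called genes. Of its 7 tested members 4 rose and none fell, and its median log2 fold change was 2.03 against 0.05 over all genes. Gbp3 rose from 70.3 ± 18.9 to 2094 ± 2430 (log2 fold change 4.28), Gbp5 by 3.46, Gbp2 by 3.43 and Irgm2 by 2.03. On the deposited scaling the limma adjusted p ran from 4.3e-15 (Gbp3) to 0.0102 (Irgm2), and rests on spread pooled over genes. With TMM scaling it ran from 0.0036 (Gbp3) to 0.0472 (Irgm2). KO 1 was the highest library for each of these 4 genes and KO 3 the lowest KO library. These GTPases are known interferon targets. On the deposited scaling their KO libraries ranked KO 1, then KO 2 or KO 4, then KO 3. Gsdmd had such an order there too, with KO 2 before KO 4, but after TMM scaling KO 2 was its lowest KO library. Casp4 was lowest in KO 4 on both scalings. Whether these orders share a cause was not tested.

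Of 16 inflammasome sensors and their adaptor, none was called by limma, edgeR or DESeq2, none had an unadjusted p under 0.05, and the median log2 fold change was -0.08. The members with the smallest p were Nlrp6 (-0.68, adjusted p = 0.844), an intestinal sensor, and Pycard (0.67, adjusted p = 0.847), the ASC adaptor that joins sensors to caspase-1. In the list of 10 interleukin-1 family genes limma called none, while edgeR and DESeq2 each called 1 higher. That gene was Il18bp, which encodes the soluble inhibitor of interleukin-18, at 85.9 to 109 in Het and 165 to 728 in KO without overlap (log2 fold change 1.45, limma adjusted p = 0.109, edgeR 0.0376, DESeq2 0.0216). Il1rn, the receptor antagonist, had the next smallest p (0.41, adjusted p = 0.938). Il1b and Il18, the caspase-1 substrates, had log2 fold changes of 0.25 and 0.08 (limma adjusted p = 0.963 and 0.990).

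Among 7 tested genes of other gasdermins and membrane rupture none was called by limma, edgeR or DESeq2, with a median log2 fold change of 0.08. The smallest p were those of Gsdmc3 (-0.57, adjusted p = 0.924) and Gsdma3 (-0.46, adjusted p = 0.945). In the list of 9 other caspases and partners of caspase-8, limma called none. Mlkl, the pore-forming protein of necroptosis, was at 77.1 to 85.9 in Het and 128 to 652 in KO (log2 fold change 1.47, limma adjusted p = 0.0747; edgeR and DESeq2 called it, at 0.0493 and 0.0207).

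None of 9 apoptosome and PIDDosome genes was called by limma, edgeR or DESeq2, though all 9 log2 fold changes were positive, with a median of 0.71. Over all genes 54.3% were positive and the median was 0.05, while genes with a mean of at least 50 had a median of 0.25. The members with the smallest p were Pidd1 (0.78, adjusted p = 0.749), the scaffold that activates caspase-2, and Bax (0.74, adjusted p = 0.791), which releases cytochrome c. With TMM scaling the median of this list was 0.49 and that of all genes -0.16. None of 5 inhibitors of apoptosis was called, with Xiap, which inhibits caspase-9, at 0.92 (adjusted p = 0.823) and Birc2, which restrains death receptor signalling, at 0.58 (0.934). Among 11 executioner substrates none was called either, and Lmna, the lamin that caspase-6 cuts, was at -0.62 (adjusted p = 0.938) and Vim, the intermediate filament vimentin, at -0.32 (0.959). In the lists of gasdermins, apoptosome and PIDDosome genes, inhibitors and substrates, no member had an unadjusted p under 0.05.

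**Figure D5:**
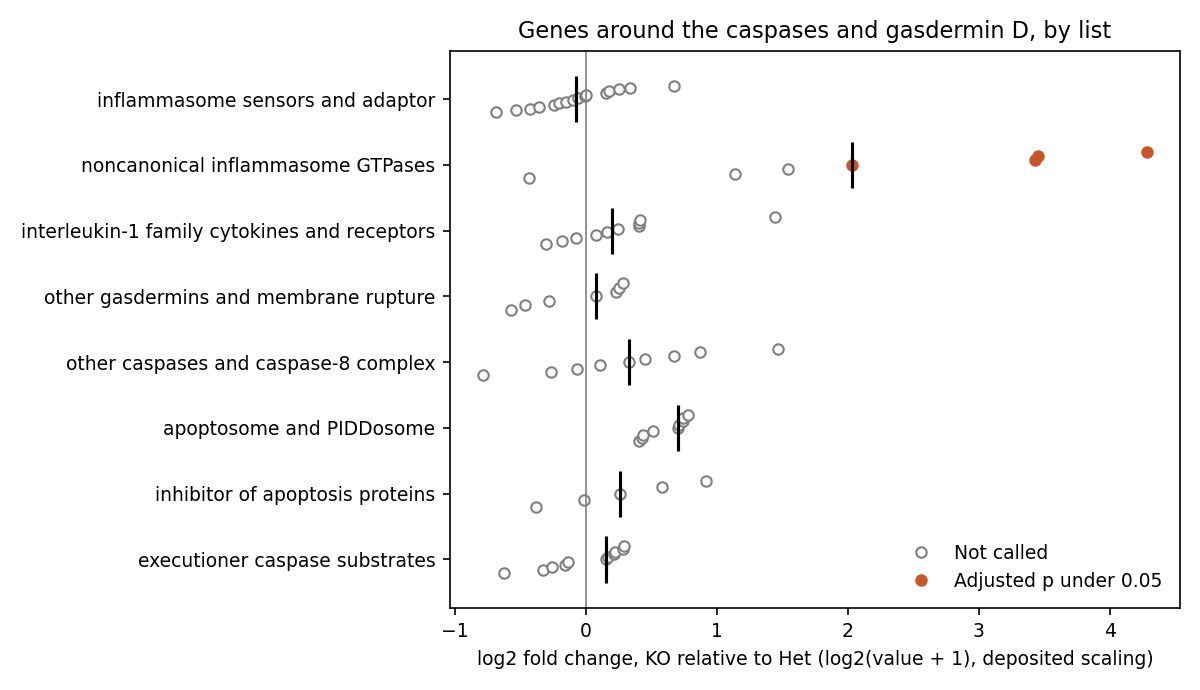
Log2 fold change of KO over Het for each tested gene of the 8 pathway lists, on the deposited scaling, with the median of each list as a vertical bar and called genes as filled points. The noncanonical inflammasome GTPases have a median of 2.03, and the medians of the other lists lie between -0.08 and 0.71.

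For each member the genes of most similar pattern were taken as those with the smallest root-mean-square difference in log2 level over the 8 libraries, after TMM scaling and centring, among 10530 genes. Gsdmd was nearest to Parp11 (0.18), Thap3 (0.18) and BC065397 (0.20). Casp4 was nearest to Ppie (0.30), Ppa1 (0.31) and Psme1 (0.31), a less close match. For Casp2 they were Mfsd14b (0.05), Yipf4 (0.07) and Cpsf3 (0.08), and for Casp6 Katnal1 (0.06), Ttc38 (0.08) and Smpdl3a (0.09). Casp9 was nearest to Nol3 (0.09), Mpnd (0.13) and Spindoc (0.13). The nearest genes of Casp1 (Hdc, 0.30) and Casp12 (Spag17, 0.43) were about as far as those of Casp4 or farther.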

How the data were processed

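Sequencing of 8 libraries of sorted mouse beta cells (4 Het, 4 KO) was used, with groups taken from the sample titles. Libraries were made with a stranded pico-input total RNA kit, per the labels' protocols. FastQC 0.11.8, UMI-tools, STAR 2.7.3a, HTSeq, DESeq2 1.28.1 and the mm10 build are named per the submitters' processing notes. The annotation, counting mode, strand setting and removal of duplicates are not given in the sources used here. The deposited signal values are gene counts that the authors divided by 1 size factor per library. Whole reads were recovered from them, since 100% of each library's values were whole multiples of its smallest value (tolerance 0.001 of that value).

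KO and Het were compared with limma 3.58.1 in R 4.3.3. It was run on log2(value + 1), keeping genes whose mean was 10 or more, eBayes with trend and robust settings, two-sided, with Benjamini-Hochberg adjustment over all genes tested and a threshold of 0.05. Fold changes from limma are differences of log2(value + 1), which understates low genes, and edgeR and DESeq2 give their own model's log2 fold changes. It called 198 genes higher and 5 lower in KO. On the recovered reads edgeR 4.0.16 called 157 higher and 8 lower, and DESeq2 1.42.0 called 211 and 3. Exact permutation tests used log2(value + 1) of the 8 values. Precision is limited by 4 libraries per group. The limma fit on the deposited scaling had a median of 128988 degrees of freedom. Its SE and p-values therefore rest on spread pooled over genes and hardly on a gene's own libraries. The fits of KO 1 and KO 2 or of KO 3 and KO 4 alone rest on pooled spread too. Replicate numbers were not used as pairs in the main fit. Of the symbols, 42961 were matched to GENCODE M21 of mm10, and coordinates count from base 1. Beyond the 7 members, the text names from each list the 2 genes with the smallest p and every called gene where at most 4 were called. Some genes that this rule takes are not reported here. Il1b, Il18 and the other gasdermins were added for their roles after their values were seen. The members and lists were chosen with earlier results of these data known. The scripts were tested on simulated data. Alternatives covered the pseudocount, filter, scaling, test settings, tools, replicate block and left-out libraries.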

Additional observations from a re-analysis of the deposited data

Results flagged for a closer look

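On the deposited scaling Casp1 in KO 1 stood apart from the other KO libraries. Its normalized count was 17.0 against 9.06 to 9.93 in KO 2 to KO 4, and the gap to the nearest library was 0.858 of the range, above Dixon's 95% critical value for 4 samples. After TMM scaling it did not, at 12.2 against 12.7 in KO 3. The value rests on 19 reads against 7 to 16. Each of the 7 members was checked in both groups, and chance passes this limit in about 1 of 20 groups.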

How the results depend on the processing

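All counts compare KO with Het. Over all genes limma called 198 higher and 5 lower, and the lower count moved to 2 with a mean of at least 50, 8 with TMM scaling and with edgeR, 19 with total reads, 3 with DESeq2 and 166 with array weights. Quantile scaling gave 320 higher and 138 lower, a mean of at least 200 with TMM factors 404 and 284, and no trend or robust settings 127 and 1. Leaving out 1 library at a time gave 94 to 338 higher and 1 to 75 lower, 0 to 1 members called higher, and 2 to 7 genes of the pathway lists (4 in the full fit). The replicate number as a block gave 182 higher and 5 lower and 0 members called, and it changed no call of a member. Same-numbered libraries correlated at -0.28, 0.26, -0.54 and 0.62, which shows no pairing by number. The check cannot exclude one, because libraries of unlike number correlated as strongly (Het 3 with KO 2 at 0.62, Het 4 with KO 3 at 0.61).

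The Het libraries against KO 1 and KO 2 gave 9809 higher and 3182 lower with 3 members called, and with TMM scaling 3758 and 5573, again with 3 members. Against KO 3 and KO 4 the lower count was 1587, and with TMM scaling 536 were higher and 1118 lower with 1 member called. Libraries of both sexes by Xist and Ddx3y gave 8538 and 2049 with 3 members, and with TMM scaling 2610 and 4001 with 2. In the same order, the pathway lists had 41 higher and 12 lower, 17 and 21, 5 lower, 7 and 2, 38 and 7, and 12 and 13. DESeq2 and the mean of at least 200 each gave 7 higher in the lists, and that mean and quantile scaling gave 1 lower. These TMM fits of fewer libraries and TMM scaling with no filter were added after seeing the data.

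Alternatives not named here (pseudocounts of 0.5 and 8, no filter) changed no count beyond 1.5 times. Gsdmd (0.85 to 1.62) and Casp4 (0.13 to 1.92) were higher in KO under every alternative that gave them a value. Neither passed the filter of 200, and Casp4 did not pass that of 50. The sign of Casp2 turned with array weights (-0.22), with KO 3 and KO 4 alone (-0.46, or -0.23 with TMM scaling) and without single libraries (-0.046 to 0.58). Casp6 turned with TMM scaling (-0.13, also with no filter, exact permutation p = 0.143), quantile scaling (-0.19), total reads (-0.077), array weights (-0.24), edgeR (-0.16), KO 3 and KO 4 alone (-0.38, or -0.16 with TMM), KO 1 and KO 2 with TMM (-0.11), both sexes with TMM (-0.15) and without single libraries (-0.17 to 0.25). Casp9 turned with DESeq2 (0.085), KO 1 and KO 2 alone (0.53), both sexes (0.62) and without single libraries (-0.30 to 0.25). Casp1 was at 0.24 without Het 3, and at -0.0089 with TMM scaling too. Casp12, where it passed the filter, ranged from -1.03 to 0.49. The cause of these turns was not tested. The counts of Casp1 and Casp12, at most 25 reads a library, limit any statement on them.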

Other observations

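Other gasdermins were read in these libraries too. Gsdma, a skin gasdermin, was at a normalized count of 261 ± 72.8 in Het and 376 ± 275 in KO (SD, n = 4 each), or 95.8 and 138 per kilobase of exon, above Gsdmd at 16.5 and 40.8 and above each caspase described. It lay above 100% of the olfactory and vomeronasal receptor genes per kilobase in every library, and its log2 fold change was 0.25 (limma adjusted p = 0.967). No annotated gene overlaps it in mm10 (chr11:98664351-98677708, plus strand). Its near relatives Gsdma2 and Gsdma3 were lower, at 21.9 ± 4.96 and 15.0 ± 4.33 in Het. Gsdme was at 73.4 ± 8.74 in Het and 78.5 ± 16.5 in KO, with a log2 fold change of 0.08 (limma adjusted p = 0.990). Reads of near-identical copies cannot be separated further here.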
